A study of Mus musculus with 18 samples.

Results

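The Hox genes of 4 clusters, HoxA to HoxD, were followed in mouse embryonic stem cells on their way to heart cells. Members were all genes whose symbol is Hox, a cluster letter from a to d and a paralogue number from 1 to 13, read from probe sets assigned to that gene alone. These were 33 of the 18193 genes on the arrays, each read from its brightest probe set. HoxA had 9 members, HoxB 9, HoxC 7 and HoxD 8. A further 6 of the 39 Hox genes in the RefSeq gene table had no probe set of their own and were not analysed here.

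All cells came from D3, a mouse embryonic stem cell line, left to form embryoid bodies, small floating balls of differentiating cells, in medium with ascorbic acid. Selected cardiomyocytes came from a clone in which the Myh6 (alpha myosin heavy chain) promoter drives neomycin phosphotransferase, so that G418 spares heart muscle cells; they had 2 arrays and the labels give them no day or batch. GFP-positive and GFP-negative cells came from another clone, in which an enhancer of the heart gene Nkx2-5 with the Hsp68 minimal promoter drives green fluorescent protein. They were sorted on days 5, 6, 7 and 8, with 1 array of batch 1 and 1 of batch 2 for each fraction and day, which makes 16 sorted arrays. The stem cells were grown on mouse embryonic fibroblasts, which were removed before differentiation. Whether 2 arrays of 1 group stem from separate cultures is not in the labels, and the p-values therefore cover the spread among these arrays alone, which could be technical.

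Hox proteins are homeodomain transcription factors that give position along the body axis. In each cluster the genes lie in the order of their paralogue numbers, and the low numbers are switched on first in time and farthest forward in the embryo. Hoxb1 and other genes with low numbers are known from the progenitors of the second heart field, while genes with numbers from 9 upward pattern the hind trunk, the limbs and the urogenital tract. Retinoic acid, Cdx factors and Wnt and Fgf signals act upstream of the clusters, and Pbx and Meis proteins bind DNA together with Hox proteins.

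Hoxb1 and Hoxd1, both of paralogue group 1, were lower on later days, and their promoters are shown for that reason. The windows surround the annotated start of each gene in RefSeq on build GRCm38.p6. Capitals mark TGATNNAT, a form of the site that Hox and Pbx proteins bind together, and CCAAT, the site of NF-Y, on either strand.
Hoxb1, chr11:96365508-96365807, plus strand: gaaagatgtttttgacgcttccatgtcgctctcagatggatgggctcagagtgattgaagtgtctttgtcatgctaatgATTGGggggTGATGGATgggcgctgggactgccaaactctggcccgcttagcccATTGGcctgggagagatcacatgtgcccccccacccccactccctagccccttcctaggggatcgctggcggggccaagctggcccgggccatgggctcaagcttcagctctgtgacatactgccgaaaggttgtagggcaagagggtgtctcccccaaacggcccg
Hoxd1, chr2:74762730-74763029, plus strand: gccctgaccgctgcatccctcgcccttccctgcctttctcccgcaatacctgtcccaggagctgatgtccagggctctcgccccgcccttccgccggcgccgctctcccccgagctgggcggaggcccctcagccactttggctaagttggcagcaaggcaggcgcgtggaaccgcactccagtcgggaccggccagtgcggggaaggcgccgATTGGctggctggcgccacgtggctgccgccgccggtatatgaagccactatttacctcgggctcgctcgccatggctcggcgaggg
The Hoxb1 window holds 1 match to TGATNNAT and 2 to CCAAT, with no overlap between them. The Hoxd1 window holds 1 match to CCAAT and 0 to TGATNNAT. Neither holds TTTATG, a site of Cdx factors. Of 32851 promoter windows of the same length, 8.85% hold TGATNNAT, 37.4% CCAAT and 11.9% TTTATG. Of the 21 windows listed for 19 Hox members, 3 hold TGATNNAT, 12 CCAAT and 3 TTTATG.

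The values are MAS5 signals, already scaled to 1 trimmed mean, with array medians of 18.2 to 29.3 units. The number of arrays limits the precision. Myh6 had signals of 8122.3 and 7891.5 in selected cardiomyocytes and 2478.2 and 2592.9 in GFP-positive cells of day 8. Nkx2-5 was higher in GFP-positive than in GFP-negative cells by 1.07 ± 0.26 over all days (log2, SE; limma adjusted p = 0.0443). In batch 2 its signals were close early, with 60.6 in GFP-positive and 57.3 in GFP-negative cells on day 5, and 67.4 and 43.5 on day 6. The test took in 13435 genes that reached a signal of 22.5 on 2 or more arrays, 20 of the 33 Hox members among them. The tested members were 6 of HoxA, 6 of HoxB, 5 of HoxC and 3 of HoxD. Hoxa10, Hoxc4, Hoxc9 and Hoxc10 reached 22.5 on GFP-negative arrays alone, so passing the filter already required them to be higher there. No detection calls were used, so it is not known which dim values lie above background. All differences are of log2(signal + 6.8), a scale that makes changes of dim genes look smaller, and each ± value is the standard error (SE) from a limma fit to the 18 arrays.

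**Figure D1:**
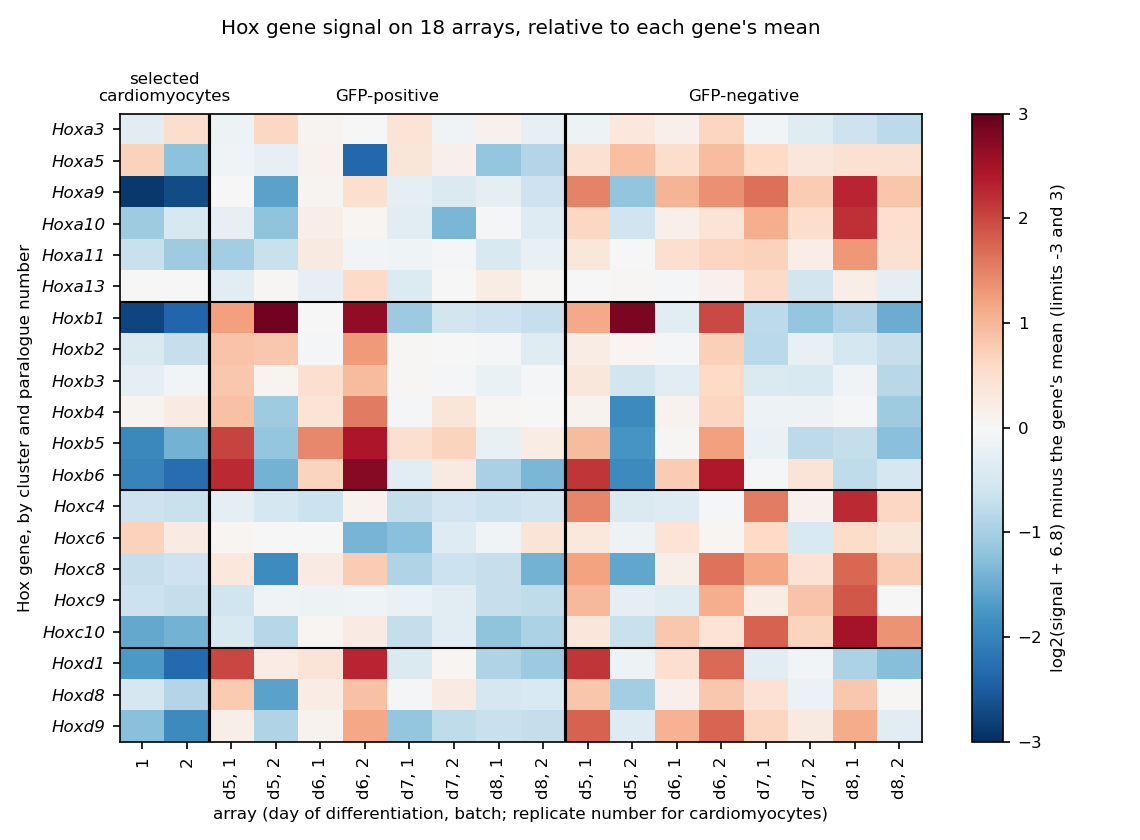
Signal of the 20 tested Hox genes (rows, by cluster and paralogue number) on the 18 arrays (columns), as log2(signal + 6.8) minus the mean of the gene over all arrays. HoxB and HoxD genes are highest on days 5 and 6, while Hoxa9, Hoxa10 and most HoxC genes are highest in GFP-negative cells.

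The first comparison asked how Hox genes differ between cells with and without activity of the Nkx2-5 enhancer. Over all days 2 Hox genes were lower in GFP-positive cells, Hoxc10 and Hoxa11, and 0 were higher. In this comparison 2.7% of all genes tested passed, and 0.558% passed as lower. On days 7 and 8 alone 4 were lower, Hoxc10, Hoxa10, Hoxc4 and Hoxa11, against 1.5% of all genes lower and 6.59% in either direction. Of these, Hoxc10, Hoxa10 and Hoxc4 had passed the filter through GFP-negative arrays alone. The filter thus favoured their calls, and their p-values and overlaps between the fractions, here and below, are not independent of it. On days 5 and 6 limma called 0 Hox genes and 0.156% of all genes. At an unadjusted p under 0.05 there were 2 of 20 Hox genes (Hoxa11 and Hoxa5), beside 904 of all 13435 genes.

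Hoxc10, a gene of the lumbar region and the hind limb, showed the lowest p of the members. In GFP-positive cells its signals were 8.9 and 5.2 on day 5, 15.7 and 19.1 on day 6, 6.5 and 10.7 on day 7, and 2.6 and 4.4 on day 8 (batch 1, then batch 2, here and below). In GFP-negative cells they were 20.7 and 6.8 on day 5, 31.2 and 22.0 on day 6, 67.4 and 27.9 on day 7, and 114.8 and 48.2 on day 8. On days 7 and 8 all 4 GFP-positive arrays lay below all 4 GFP-negative arrays, and in 8 of 8 pairs of 1 day and batch the GFP-positive array was the lower. The same held in 8 of 8 pairs for 5 of the 20 tested members (Hoxa5, Hoxa9, Hoxa11, Hoxc10 and Hoxd9) and for 2.84% of all genes tested. The difference was -1.42 ± 0.23 over all days (adjusted p = 0.00861) and -2.36 ± 0.33 on days 7 and 8 (adjusted p = 0.00259). Within batches the late difference was -3.09 in batch 1 and -1.64 in batch 2. In a bulk sample, fewer cells that express a gene and less of its RNA in each cell cannot be told apart.

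Hoxa11, which patterns the forearm and lower leg and the uterus, had signals of 9.8 and 14.9 on day 5, 34.9 and 25.7 on day 6, 24.5 and 26.3 on day 7, and 18.3 and 22.7 on day 8 in GFP-positive cells. In GFP-negative cells the signals were 36.5 and 28.1, 42.1 and 46.6, 48.4 and 32.7, and 77.3 and 40.8 on the same days. The GFP-positive array was lower in 8 of 8 pairs, and the groups did not overlap on days 7 and 8. The difference was -0.82 ± 0.16 over all days (adjusted p = 0.0216) and -0.88 ± 0.23 on days 7 and 8 (adjusted p = 0.0423).

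Hoxa10, a gene of the lumbar region and the uterus, had signals of 10.7 and 2.2 on day 5, 17.1 and 15.0 on day 6, 9.7 and 1.3 on day 7, and 13.3 and 9.2 on day 8 in GFP-positive cells. In GFP-negative cells these were 25.5 and 6.9, 16.4 and 20.8, 37.4 and 23.4, and 88.2 and 22.8. The groups did not overlap on days 7 and 8, when the difference was -1.61 ± 0.41 (adjusted p = 0.0367). Its second probe set was dim, with a mean signal of 5.4, and differed by -0.25 on those days.

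Hoxc4, the first gene of the HoxC cluster, had signals of 3.8 and 2.0, 1.4 and 7.0, 1.0 and 1.8, and 1.4 and 1.7 on days 5, 6, 7 and 8 in GFP-positive cells. In GFP-negative cells it had 28.5 and 2.6, 3.0 and 5.5, 30.2 and 7.2, and 53.5 and 12.9. It was thus dim on every GFP-positive array and high on 3 GFP-negative arrays of batch 1. The late difference was -1.76 ± 0.46 (adjusted p = 0.0406), with -2.56 in batch 1 and -0.96 in batch 2.

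Hoxa9, which is active in early blood cells, and Hoxc8, a gene of the thorax, had late differences near the threshold. Hoxa9 had signals of 50.7 and 11.9, 53.2 and 72.1, 39.6 and 35.1, and 40.5 and 30.4 on days 5 to 8 in GFP-positive cells, against 154.0 and 18.4, 108.1 and 140.3, 172.9 and 89.1, and 269.7 and 95.0 in GFP-negative cells. Its late groups did not overlap, and the difference was -1.79 ± 0.52 (adjusted p = 0.0582). Its other probe set, with a mean signal of 21.5 against 76.9, differed by 0.17 on those days, so the Hoxa9 probe sets disagree.

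Hoxc8 had signals of 42.1 and 3.9, 39.9 and 59.7, 14.3 and 18.3, and 17.5 and 8.0 on days 5 to 8 in GFP-positive cells, against 83.4 and 6.6, 37.5 and 115.1, 81.6 and 46.1, and 123.2 and 59.0 in GFP-negative cells. Its late groups did not overlap either, and the difference was -1.93 ± 0.59 (adjusted p = 0.0686). With batch as a block, 4 members passed over all days, adding Hoxa9 and Hoxa10 (adjusted p = 0.0218 and 0.0200), where 5.26% of all genes passed. On days 7 and 8 the block gave 6, adding Hoxa9 and Hoxc8 (adjusted p = 0.0215 and 0.0411), where 10.5% of all genes passed.

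**Figure D2:**
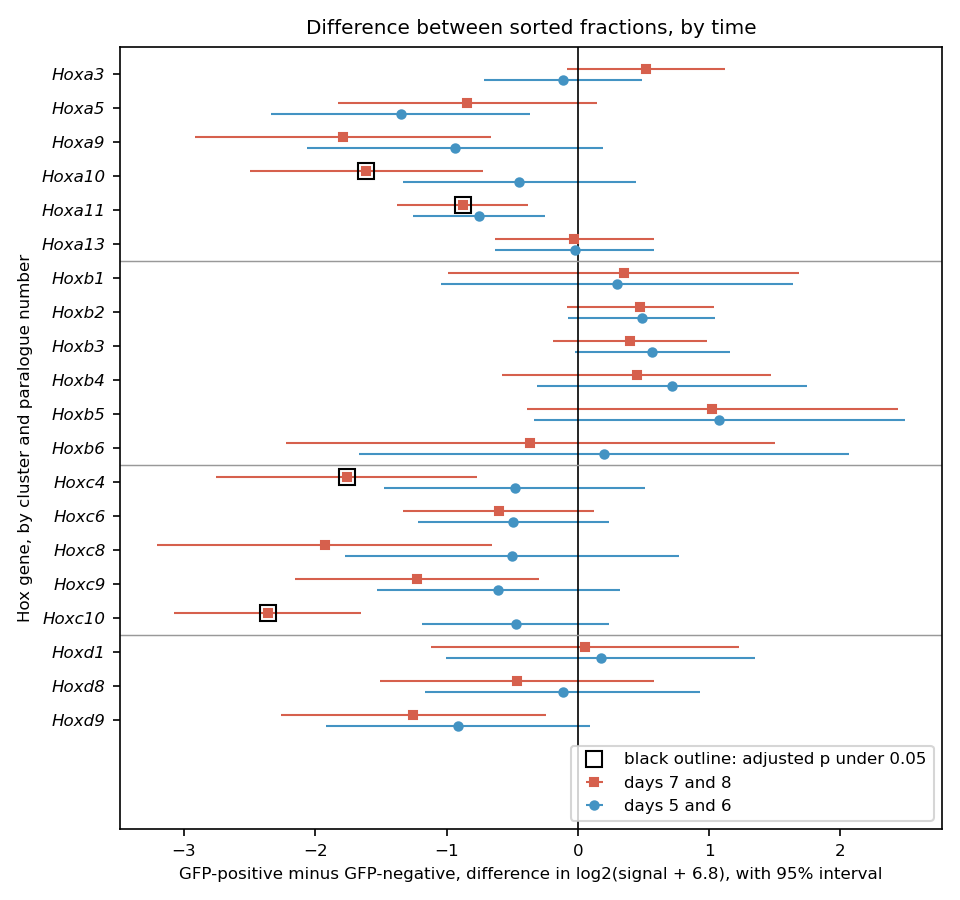
GFP-positive minus GFP-negative difference in log2(signal + 6.8) for the 20 tested Hox genes, with 95% intervals, on days 7 and 8 (squares) and on days 5 and 6 (circles). A black outline marks an adjusted p under 0.05, which Hoxa10, Hoxa11, Hoxc4 and Hoxc10 reached on days 7 and 8.

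By cluster, the median difference over all days was -0.92 for HoxA, 0.48 for HoxB, -1.12 for HoxC and -0.29 for HoxD, beside -0.02 for all genes tested. By paralogue number it was 0.32 for the 5 tested genes numbered 1 to 3, -0.42 for the 8 numbered 4 to 8, and -1.03 for the 7 numbered 9 to 13. These medians are in part fixed by the filter, since Hoxc4, Hoxc9 and Hoxc10 in HoxC and Hoxa10 in HoxA passed it through GFP-negative arrays alone, and 3 of the 4 are numbered 9 to 13. On days 7 and 8, 8 of the 20 members had every GFP-positive array below every GFP-negative array, beside 5.14% of all genes, and 1 (Hoxb4) had every one above, beside 7.92%. The 4 members that passed the filter through GFP-negative arrays are among the 8. For Hoxb4 the lowest GFP-positive signal of those days was 49.9 and the highest GFP-negative signal 49.7. Its other probe set, with a mean of 20.3, overlapped. It differed by 0.53 on those days and 0.19 over all days, beside 0.45 and 0.58 for the brightest.

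No HoxB gene passed the test between the fractions. Over all days 3 of 6 tested HoxB genes had an unadjusted p under 0.05 by limma. So did 13 of all 20 members and 2468 of all 13435 genes. The 13 include members that passed the filter through GFP-negative arrays alone. Hoxb2, Hoxb4 and Hoxb5 had the higher signal in the GFP-positive array of 8 of 8 pairs, as did 3.45% of all genes, and Hoxb1 and Hoxb3 did in 7, where 10.4% of all genes did in 7 or 8. Their differences over all days were 0.48 ± 0.18 for Hoxb2, 0.48 ± 0.19 for Hoxb3, 0.58 ± 0.34 for Hoxb4 and 1.05 ± 0.46 for Hoxb5, with adjusted p between 0.181 and 0.384. Hoxb6 was lower in the GFP-positive array of 5 pairs and differed by -0.08 ± 0.61. Hoxb3 to Hoxb6, like Hoxc9 and Hoxd9 elsewhere, were named after their values were seen.

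Without the 2 arrays of day 5 in batch 2, an alternative chosen after the data were seen, 7 members passed over all days, in a fit that called 428 of 13435 genes. Hoxb5 was then higher (1.11, adjusted p = 0.0325), and Hoxa9, Hoxa11, Hoxc4, Hoxc8, Hoxc10 and Hoxd9 were lower. The count was 6 without the GFP-negative array of day 5 in batch 2 alone, where 248 genes were called, against 363 with all arrays. It was 1 without the GFP-positive array of day 7 in batch 1, of day 8 in batch 1 or of day 8 in batch 2, since Hoxa11 then missed the threshold, and those fits called 128, 160 and 133 genes. On days 7 and 8 the count was 1 or 2 without any single array except GFP-negative day 8 of batch 2, which left 4, and these 8 fits called between 144 and 1363 genes, against 886 with all arrays. Without any single array the Hoxc10 difference was -1.56 to -1.28 over all days and -2.65 to -2.08 on days 7 and 8. The filter was not redone in these fits, so each kept Hoxc10, which had passed it through GFP-negative arrays alone.

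The summed signal of fibroblast and mesenchyme markers moved with the same arrays, though not every marker did. The summed signal of 8 such markers (Lum, Dcn, Col1a1, Col3a1, Postn, Prrx1, Twist2 and Thy1) was 1766.6 to 2120.9 in GFP-positive cells of days 7 and 8 and 2814.5 to 15997.9 in GFP-negative cells. In GFP-negative cells of day 8 it was 15997.9 in batch 1 and 7319.2 in batch 2, and batch 1 was also the higher for Hoxc10. By the test, 1 of 8 was lower in GFP-positive cells on days 7 and 8 (4 with the batch block), and Lum, the defining marker, differed by -2.68 ± 0.67 (adjusted p = 0.0343). None of the defining markers was at 0 on any array, but that does not show that each cell type was present. Sox1, the defining marker of neuroectoderm, was above 0 too, at only 1.2 to 4.0. Selected cardiomyocytes, which are of another clone, had sums of 16583.6 and 16539.7 and Hoxc10 signals of 0.7 and 1.3. Of 6 markers of lateral plate and limb mesenchyme, 0 passed on days 7 and 8, and 1, Tbx4, was lower with the batch block (adjusted p = 0.0467). Their sums were 866.0 to 1039.9 in GFP-positive and 835.5 to 2327.9 in GFP-negative cells. Hand2 alone had 607.2 to 850.7 in GFP-positive cells, most of each sum, and 449.3 to 1058.1 in GFP-negative cells. Tbx4, a hind limb factor and the defining marker of this list, had signals of 22.1 to 46.3 in GFP-positive and 83.7 to 425.3 in GFP-negative cells of those days, a difference of -2.34 ± 0.77 (adjusted p = 0.0893). Pitx1, another hind limb factor, had 49.3 to 101.9 in GFP-positive and 185.2 to 595.3 in GFP-negative cells (-2.08 ± 0.93, adjusted p = 0.194). Neither gene's groups overlapped.

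Other cell types also differed between the fractions. Of 8 cardiomyocyte markers, 1 was higher in GFP-positive cells over all days, 0 on days 5 and 6 and 1 on days 7 and 8. With the batch block these counts were 5, 0 and 6. Of 7 endothelial markers, 6 were higher in GFP-positive cells over all days and 5 on days 7 and 8, with late sums of 3172.1 to 4782.3 in GFP-positive and 744.7 to 1354.4 in GFP-negative cells. Of 7 markers of visceral endoderm, 3 were higher over all days and 5 late, with late sums of 5619.8 to 15260.0 in GFP-positive and 1642.6 to 4181.4 in GFP-negative cells. Of 6 pluripotency markers, 4 were lower in GFP-positive cells over all days and 0 late, with sums over all days of 100.3 to 2864.9 in GFP-positive and 302.4 to 6984.5 in GFP-negative cells. Of 4 blood markers, 0 passed. The part of these cell types in the Hox differences was not tested.

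**Figure D3:**
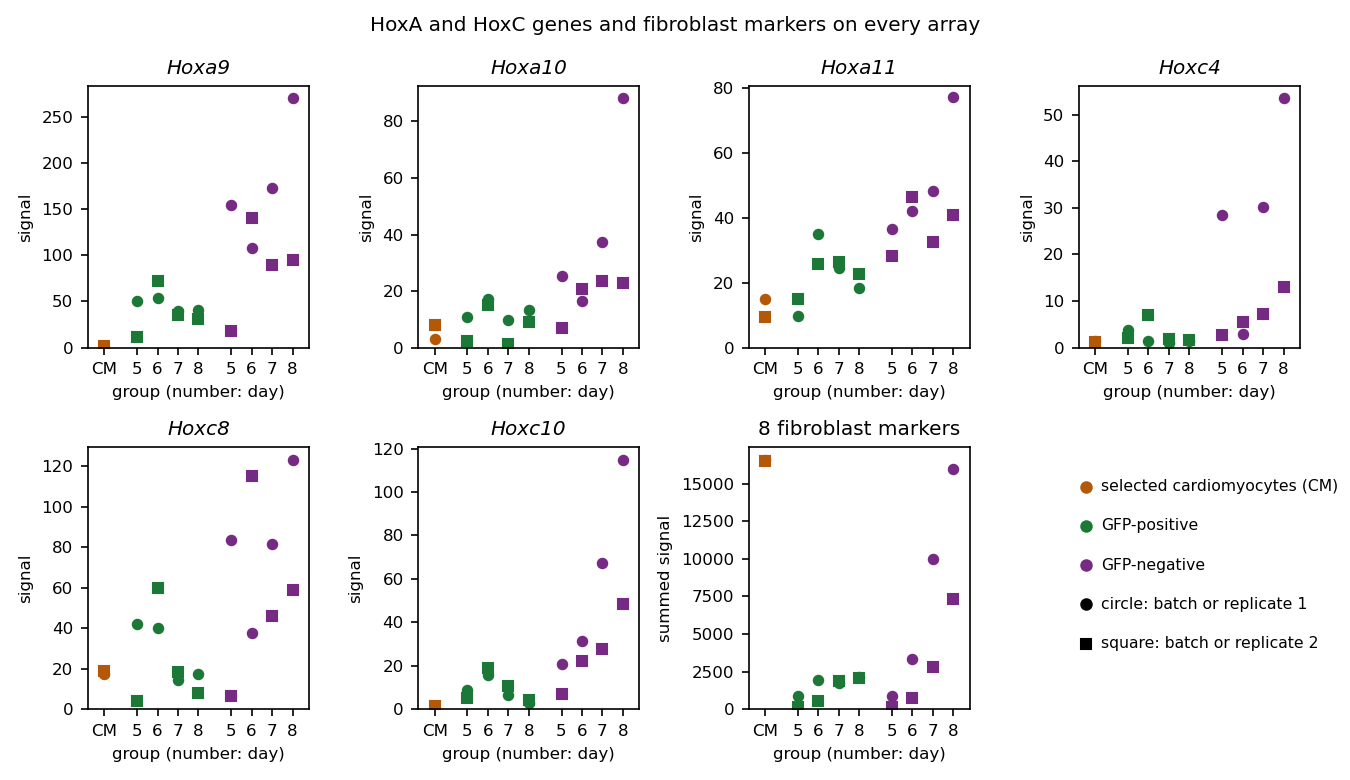
Signal of 6 HoxA and HoxC genes and the summed signal of 8 fibroblast markers on every array, for selected cardiomyocytes (CM), GFP-positive cells and GFP-negative cells, with circles for batch or replicate 1 and squares for 2. GFP-negative cells of days 7 and 8 carry the highest Hoxc10 signals, from 27.9 to 114.8, while the cardiomyocytes have 0.7 and 1.3.

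The next comparison set days 7 and 8 against days 5 and 6 within each fraction. In GFP-positive cells Hoxb1, Hoxd1 and Hoxb2 were lower late, 3 of 20 members, where 19.1% of all genes passed and 7.94% were lower. In GFP-negative cells Hoxb1 was lower and Hoxc10 higher, where 12.3% passed, 5.2% lower and 7.09% higher. Counted in both directions together, the members' shares are below those of all genes; the 3 of 20 that were lower in GFP-positive cells are a larger share than that of all genes.

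Hoxb1, which marks the hindbrain and the second heart field in the embryo, had signals of 139.3 and 457.5 on day 5, 55.9 and 383.5 on day 6, 22.4 and 35.4 on day 7, and 33.6 and 31.5 on day 8 in GFP-positive cells. In GFP-negative cells it had 128.7 and 435.7, 42.2 and 239.4, 28.9 and 20.9, and 26.6 and 15.2. Every late array lay below every early one in both fractions, and batch 2 was the higher on days 5 and 6. The change with time was -2.44 ± 0.62 in GFP-positive cells (adjusted p = 0.0190) and -2.49 ± 0.62 in GFP-negative cells (adjusted p = 0.0240). In GFP-positive cells it was -1.48 in batch 1 and -3.40 in batch 2, and in GFP-negative cells -1.24 in batch 1 and -3.74 in batch 2.

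Hoxd1, known from sensory neurons, had signals of 147.6 and 38.4 on day 5, 44.1 and 180.8 on day 6, 21.7 and 33.5 on day 7, and 13.9 and 11.3 on day 8 in GFP-positive cells. In GFP-negative cells it had 163.9 and 28.2, 47.8 and 119.1, 24.2 and 29.9, and 13.4 and 9.3. The early and late GFP-positive arrays did not overlap. The change was -1.82 ± 0.54 in GFP-positive cells (adjusted p = 0.0356) and -1.70 ± 0.54 in GFP-negative cells (adjusted p = 0.0581).

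Hoxb2, a gene of the hindbrain, had signals of 252.2 and 246.1 on day 5, 133.1 and 340.3 on day 6, 140.8 and 135.7 on day 7, and 133.1 and 105.0 on day 8 in GFP-positive cells. In GFP-negative cells it had 160.8 and 143.1, 132.5 and 229.3, 74.9 and 115.7, and 92.4 and 81.7. The change was -0.82 ± 0.26 in GFP-positive cells (adjusted p = 0.0432) and -0.81 ± 0.26 in GFP-negative cells (adjusted p = 0.0581, and 0.0398 with the batch block, where 17.8% of all genes passed).

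In GFP-negative cells Hoxc10 was higher on days 7 and 8 by 1.35 ± 0.33 (adjusted p = 0.0224), with 1.56 in batch 1 and 1.14 in batch 2. It reached 22.5 on 5 GFP-negative arrays, 4 of them late, so the filter favoured late values here too. Of the 8 fibroblast markers, 5 were also higher with time in that fraction, and their part in the Hoxc10 result was not tested. All 6 tested HoxB genes had a negative estimate in both fractions, with a median of -0.86 in GFP-positive and -0.83 in GFP-negative cells, beside 0.09 and -0.01 for all genes. All 5 HoxC genes had a negative estimate in GFP-positive cells and a positive one in GFP-negative cells. Hoxc6 turned to -0.01 in GFP-negative cells with equal array medians. Hoxc4, Hoxc9 and Hoxc10 had passed the filter through GFP-negative arrays alone, so their signs are not independent of it. Of all 13435 genes, 5548 had a negative estimate in GFP-positive cells and 6636 a positive one in GFP-negative cells.

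These calls rest on few arrays. In GFP-positive cells the count stayed at 3 without day 6 of batch 1 alone. It was 1 without day 5 of either batch or day 7 of batch 2, and 0 without day 7 of batch 1, day 8 of batch 1, day 6 of batch 2 or day 8 of batch 2. In GFP-negative cells it was 4 without day 6 of batch 1 and 3 without day 5 of batch 1. It was 1 without day 8 of batch 1 or day 5, day 7 or day 8 of batch 2, and 0 without day 7 of batch 1 or day 6 of batch 2. Without both day 5 arrays of batch 2, Hoxb5, Hoxb6 and Hoxd1 were lower late in both fractions, and Hoxb1 did not pass.

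**Figure D4:**
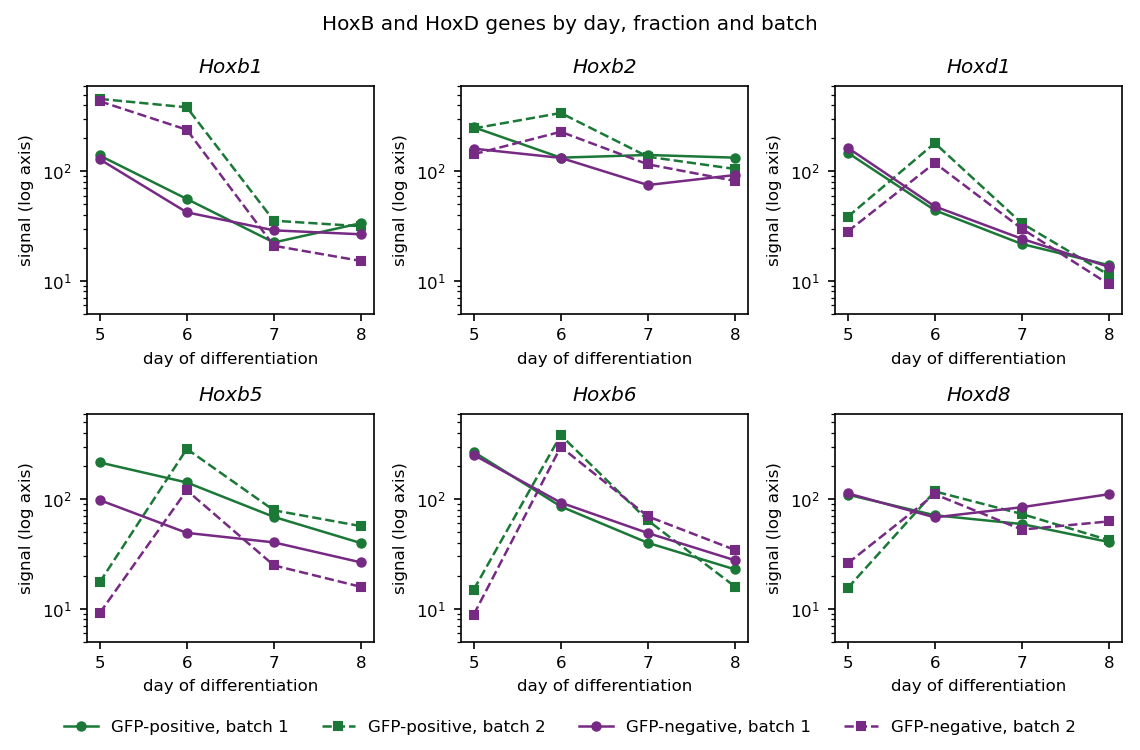
Signal (log axis) of 6 HoxB and HoxD genes by day of differentiation, in GFP-positive and GFP-negative cells, with solid lines for batch 1 and dashed lines for batch 2. In batch 1 the HoxB and HoxD genes are highest on day 5, while in batch 2 all but Hoxb1 are highest on day 6.

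The batches followed different courses on days 5 and 6. In batch 1 all 6 tested HoxB genes and all 3 HoxD genes were highest on day 5 in both fractions. In batch 2, 5 of 6 HoxB genes and all 3 HoxD genes were highest on day 6 in both fractions, and Hoxb1 alone was highest on day 5. Hoxb6, named after its values were seen, had day 5 signals of 14.9 in batch 2 and 269.3 in batch 1 in GFP-positive cells, and of 8.8 and 252.4 in GFP-negative cells. On day 6 it had 382.8 in batch 2 and 85.5 in batch 1 in GFP-positive cells, and 299.2 and 92.7 in GFP-negative cells. Hoxb5 had day 5 signals of 17.4 in batch 2 and 215.5 in batch 1 in GFP-positive cells, and of 9.1 and 97.8 in GFP-negative cells.

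On day 5 the median batch 2 minus batch 1 difference was -1.34 for HoxB and -1.77 for HoxD in GFP-positive cells, and -1.46 and -2.16 in GFP-negative cells, beside 0.00 and 0.03 for all genes. In GFP-negative cells 12 of 20 members were lower in batch 2 by at least 1 on the log2 scale, as were 6.26% of all genes, and in GFP-positive cells 8 were, as were 8.85%. On day 6 all 6 HoxB and all 3 HoxD genes were higher in batch 2 in both fractions, with HoxB medians of 1.22 and 1.05. Each day has 1 array of a batch and fraction, so these differences have no test.

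Other markers on the day 5 arrays of batch 2 stood apart as well. The summed signal of 6 pluripotency markers was 2864.9 in GFP-positive cells of that batch and 427.3 in batch 1, and 6984.5 and 1363.6 in GFP-negative cells. Pou5f1, which maintains pluripotency, had 306.3 and 15.7 in GFP-positive cells and 1161.2 and 229.6 in GFP-negative cells. The sum of 4 blood markers was 957.6 in batch 2 and 10020.2 in batch 1 in GFP-positive cells, and 352.7 and 9489.3 in GFP-negative cells. The part of these cells in the Hox values was not tested.

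The course over time was also compared between the fractions. By limma 0 of 20 members and 0.149% of all genes passed this interaction. At an unadjusted p under 0.05 there was 1 member, beside 1735 of all 13435 genes. Hoxc10 came nearest, with -1.89 ± 0.47 for the change in GFP-positive minus that in GFP-negative cells (adjusted p = 0.0991, and 0.0543 with the batch block). The 95% interval of this difference, which is not adjusted for the number of genes, was -2.90 to -0.88. Hoxc10 had passed the filter through GFP-negative arrays alone, most of them late, so the filter favoured this difference. For Hoxb1 the difference was 0.05, with an interval of -1.85 to 1.94, and for Hoxd1 it was -0.12, from -1.78 to 1.54, so courses that differ by over 1 log2 unit are within these intervals.

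**Figure D5:**
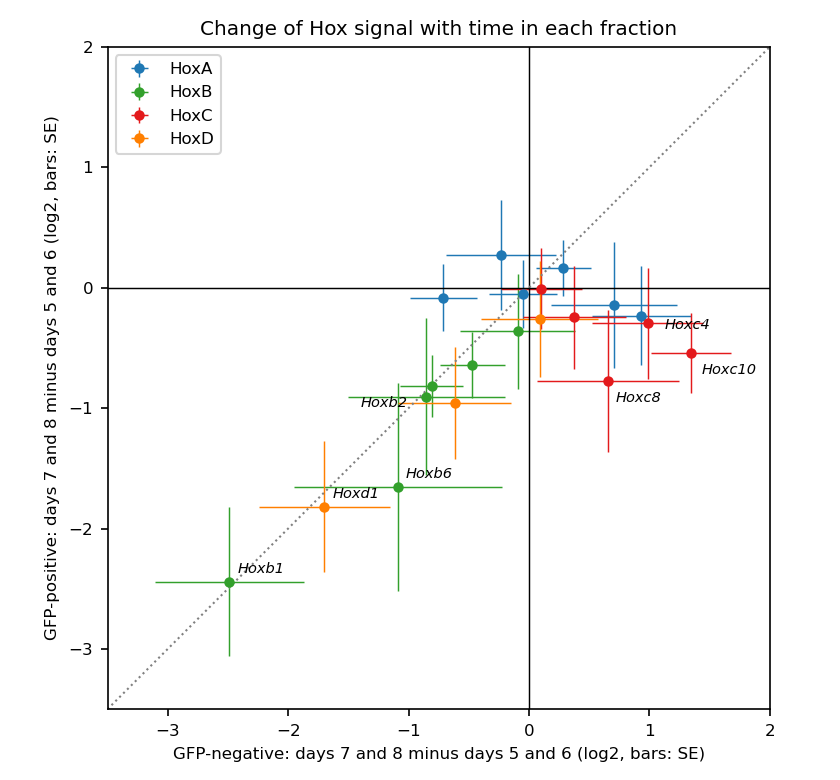
Change from days 5 and 6 to days 7 and 8 of the 20 tested Hox genes, in GFP-positive cells (vertical axis) and GFP-negative cells (horizontal axis), in log2 units with SE bars and colours for the clusters. Hoxb1, Hoxd1 and Hoxb2 lie near the dotted line of equal change, while Hoxc10 is at -0.54 in GFP-positive and 1.35 in GFP-negative cells.

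Selected cardiomyocytes were compared with GFP-positive cells of day 8. Of 20 members 1 passed, Hoxa9, which was lower, where 35.4% of all genes passed and 21.7% were lower. Hoxa9 had signals of 0.9 and 2.0 in cardiomyocytes, against 40.5 and 30.4 in GFP-positive cells of day 8. Markers of other cell types moved with it: 4 of 4 blood markers were lower in cardiomyocytes, with sums of 109.7 and 93.5 against 12620.2 and 10881.0, as were 7 of 7 endothelial markers (sums of 221.0 and 255.7, against 4703.0 and 4782.3) and 6 of 7 markers of visceral endoderm. Their part in the Hoxa9 result was not tested. The difference was -2.35 ± 0.74 (adjusted p = 0.0251), and it did not pass without any 1 of the 4 arrays (adjusted p from 0.0763 to 0.115). The clone, the day and the sorting differ between these groups as well and cannot be told apart from the cell type.

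Hoxb1 had signals of 2.4 and 5.1 in cardiomyocytes, against 33.6 and 31.5 in GFP-positive cells of day 8, a difference of -1.91 ± 0.88 (adjusted p = 0.109, and 0.0466 with the batch block, where 39.2% of all genes passed). Hoxd1 had 4.9 and 0.9, against 13.9 and 11.3. Hoxb2 had 99.4 and 81.7, against 133.1 and 105.0, and Hoxc4 had 1.5 and 1.3, against 1.4 and 1.7. Hoxa10 had 3.1 and 8.1, against 13.3 and 9.2, and Hoxa11 had 15.0 and 9.5, against 18.3 and 22.7. Hoxc8 had 17.4 and 18.9, against 17.5 and 8.0. In 11 of 20 members both cardiomyocyte arrays lay below both day 8 arrays, beside 44.5% of all genes, and in 1 (Hoxb4) both lay above, beside 31.6%.

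Hoxa5, Hoxc6 and Hoxd8 passed no comparison and are given as the other bright members of their clusters. Hoxa5, a gene of the lung and neck, had signals of 407.4 and 102.7 in cardiomyocytes, 43.7 to 326.3 in GFP-positive cells with a median of 222.9, and 321.2 to 485.8 in GFP-negative cells with a median of 356.4. The GFP-positive array was lower in 8 of 8 pairs, and the difference over all days was -1.09 ± 0.32 (adjusted p = 0.0944). This probe set is of a type whose probes can bind other transcripts, and the other Hoxa5 probe set, with a mean of 12.1, differed by -0.29.

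Hoxc6, a gene of the thorax, had signals of 57.7 and 40.3 in cardiomyocytes, 8.3 to 45.1 in GFP-positive cells and 22.1 to 53.6 in GFP-negative cells, which overlapped. Its probe set is also of that type, and its difference over all days was -0.55 ± 0.24 (adjusted p = 0.240). The other Hoxc6 probe sets, with means of 33.4 and 16.9, differed by -0.34 and -0.12. They correlated with the brightest with r = 0.63 and -0.06, so the dimmer of them disagrees with it. Hoxd8, a gene of the trunk, had 40.8 and 29.7 in cardiomyocytes, 15.4 to 117.4 in GFP-positive cells and 25.9 to 112.7 in GFP-negative cells, with the lowest value of each fraction on day 5 of batch 2. Its 2 probe sets correlated with r = 0.87 over the 18 arrays, which share groups and batches.

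The 13 members that were not tested stayed dim. Hoxa2, Hoxa4, Hoxa7, Hoxb7, Hoxb9, Hoxb13, Hoxc5, Hoxc13, Hoxd3 and Hoxd10 to Hoxd13 ranged over the 18 arrays from 0.4 to 27.8. The highest value of these was Hoxc5 in GFP-negative cells of day 8 in batch 1. Hoxa13, with the highest paralogue number among the tested members, ranged from 7.6 to 24.4, and the 95% interval of its difference between fractions over all days was -0.45 to 0.40.

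Genes that act on or with the clusters showed few differences between the fractions. Of 7 tested Hox cofactors, 0 passed in any comparison. With the batch block Meis1 and Meis2 were higher late in GFP-positive cells (1.27 and 0.78, block adjusted p = 0.0427 and 0.0122), as were 2038 of 13435 genes. In GFP-negative cells 1 cofactor was higher late with the block, as were 1355 genes. Meis1 in GFP-positive cells of days 5 to 8 had 261.8, 310.9, 335.6 and 299.6 in batch 1. In batch 2 it had 33.5, 90.2, 269.3 and 379.5, so its rise was mainly in batch 2. Of 10 tested upstream regulators, Cyp26b1, an enzyme that breaks down retinoic acid, was higher in GFP-positive cells over all days by 1.23 ± 0.28 (adjusted p = 0.0364). With time in GFP-negative cells, Cyp26a1, another such enzyme, fell by 2.68 on the log2 scale and the retinoic acid receptor Rarg fell by 0.81, while Egr2, a hindbrain factor, was higher by 1.01 (adjusted p from 0.0171 to 0.0455). Cdx4 also passed as lower, but it reached 22.5 only on the GFP-negative arrays of day 5, with 23.8 and 27.4, so the filter had selected it for high early values. In cardiomyocytes Aldh1a2, which makes retinoic acid, was higher than in GFP-positive cells of day 8 by 3.29 ± 0.52 (adjusted p = 4.73e-04), and Cdx2, Egr2 and Cyp26b1 were lower.

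Neighbours of the clusters and chromatin regulators were also read. Mtx2 and Lnpk, which lie beside HoxD, were lower in GFP-positive cells on days 7 and 8, by -0.55 ± 0.14 and -0.70 ± 0.18 (adjusted p = 0.0323 and 0.0367), the only 2 of 7 tested neighbours to pass there. Skap2, which lies beside HoxA, was higher late in GFP-negative cells by 0.94 ± 0.21 (adjusted p = 0.0163). Of 21 Polycomb and Trithorax genes, 0 passed between the fractions. With time in GFP-positive cells 4 were lower, among them Wdr5, Ezh2 and Cbx2 with estimates of -0.62, -0.57 and -0.57, and 1, Kmt2b, was higher by 0.43. In cardiomyocytes 13 of the 21 were lower than in GFP-positive cells of day 8, among them Kmt2b by -1.48 ± 0.19 and Phc1 by -1.51 ± 0.22, in a comparison where 21.7% of all genes were lower.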

How the data were processed

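The RNA of 9 groups was read on 18 Affymetrix arrays. The deposited values are linear MAS5 signal intensities from GCOS 1.4, per the submitters' processing notes. The labels' protocols give 2 rounds of T7 amplification. The trimmed mean of every array was 150.0 units. Groups and batches come from the titles. Batch numbers were taken to mark a shared batch that pairs the samples, which the labels do not state. Batch differences correlated between -0.18 and 0.66 over 28 pairs of groups, 13 of them over 0.1.

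Members and lists were chosen with earlier results of these data known. Of 45101 probe sets, controls (64), those without a symbol (9160) and those with several symbols (932) were left out, and the brightest probe set stood for each gene, of whichever type. Values were taken as log2(signal + 6.8), the offset being the 25th percentile. Group means were fitted to 13435 genes with limma 3.58.1 in R 4.3.3 (variance trend, 9 residual degrees of freedom, Benjamini-Hochberg adjustment, threshold 0.05), and the code was tested on simulated data. With batch as a block 8 remained, and the cardiomyocyte arrays carried no batch term. The block is the same term for all days. It does not describe the HoxB genes, whose median was lower in batch 2 on day 5 and higher on day 6. Named with every value were members that passed a comparison and the 2 brightest of each cluster, and up to 4 genes of a list. No genome was used, and promoters come from RefSeq. Plots used matplotlib 3.10.9.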

Additional observations from a re-analysis of the deposited data

Results flagged for a closer look

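Between days 5 and 6 and days 7 and 8, 3 HoxC genes went opposite ways in the fractions on every late array, compared with the early mean of the same fraction and batch. Hoxc10 was below that mean on 4 of 4 GFP-positive arrays and above it on 4 of 4 GFP-negative arrays, and the test of the difference gave -1.89 (limma adjusted p = 0.0991, interaction term). Hoxc4 did the same, with a difference of -1.28 (adjusted p = 0.441), and Hoxc8 with -1.43 (adjusted p = 0.504). In none of the 3 did the test of the difference pass. The smallest GFP-positive change was -0.01 for Hoxc10, -0.09 for Hoxc8 and -0.19 for Hoxc4, whose signals in these cells were only 1.0 to 7.0. Hoxc4 and Hoxc10 had passed the filter through GFP-negative arrays alone. The share of all genes that meet this rule is not given, so the count of 3 has no background.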

How the results depend on the processing

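The numbers of Hox genes called moved with several choices, while 0 of the estimates changed sign in a result that had passed. The calls among all genes moved too and are given in brackets. Over all days 2 were called (363). Batch as a replicate block gave 4 (707), a filter at the 75th percentile of all values, with 8 Hox genes tested, gave 0 (320), and omitting both day 5 arrays of batch 2 gave 7 (428). On days 7 and 8 the 4 calls (886) became 2 with the 10th percentile as offset (731), 0 with the stricter filter (755), 1 with the sorted arrays alone (559), 6 with the block (1407) and 7 without both day 5 arrays of batch 2 (1126). With time in GFP-positive cells 3 (2572) became 1 for day 8 minus day 5 (2541), and in GFP-negative cells 2 (1652) became 4 with equal array medians (1865), 1 with the stricter filter (1458) and 3 with the block (2398). For the cardiomyocytes 1 (4752) became 2 with the 10th percentile as offset (4626), 0 with the median as offset (4885), 2 without a filter (4529) and 2 with the block (5271). Leaving out each array in turn gave 1 to 6 over all days, 0 on days 5 and 6, 1 to 4 on days 7 and 8, 0 to 3 and 0 to 4 with time in GFP-positive and GFP-negative cells, 0 for the interaction and 0 for the cardiomyocytes; the fit then takes the spread of a single remaining array from the rest. The block changed no other call of a Hox gene. Equal array medians moved the median time change of all genes in GFP-positive cells to -0.27, against 0.09 as reported, and Hoxb1, Hoxb2 and Hoxd1 passed under both. The cause of these moves was not tested. Signals near background limit Hoxc4, Hoxc9, Hoxc10 and Hoxa10 in GFP-positive cells.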
